A study of Mus musculus with 4 samples.

Results

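The albumin gene family of the mouse holds Alb (albumin), Afp (alpha-fetoprotein), Afm (afamin) and Gc (vitamin D binding protein), all on chromosome 5. The 4 genes were taken by name from the GENCODE vM21 annotation of GRCm38 (mm10), out of 20753 protein-coding autosomal genes. The interval from the start of Alb to the end of Afm was added, chr5:90460897-90553543, which is 92647 bp long and held 16 of the 197739 autosomal regions with a peak in any library. Open chromatin was read by single-nucleus ATAC-Seq (scATAC-Seq), in which a transposase cuts accessible DNA and a droplet barcode names the nucleus. The samples were 4 libraries of hepatocytes isolated by two-step collagenase perfusion from livers of mice 10 to 12 weeks old by the labels, on a normal diet, which the study describes as adult male C57BL/6J. They were 1 library each from undamaged liver (PHx 0 h) and from livers 48, 72 and 96 h after PHx (partial hepatectomy, in which a surgeon takes out a portion of the organ so that it regrows). As the study describes it, the 0 and 48 h libraries each came from the cells of 1 mouse, and the number of animals behind the 72 and 96 h libraries was not found in the labels or the paper. With 1 library per time point there was no test, and library and time point cannot be told apart. Every interval below covers counting error only.

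The 4 genes arose from 1 ancestral gene and encode carrier proteins that hepatocytes secrete into plasma. Albumin is the main plasma protein and carries fatty acids, hormones and drugs. Alpha-fetoprotein is its counterpart in the fetus, and the gene is shut down in the liver after birth under repressors such as Zbtb20 and Zhx2. Afamin binds vitamin E, and vitamin D binding protein carries vitamin D metabolites and free actin. Alb and Afp are textbook models of liver transcription: short promoters bound by HNF1, C/EBP and other hepatocyte factors are joined to enhancers that lie kilobases upstream, among them an Alb enhancer bound by FOXA.

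The proximal promoters are shown to set the 4 members side by side, and a distal element upstream of Alb and another upstream of Afp are shown since their counts moved apart from those of the Alb gene. Each promoter is the 250 bases before the RefSeq start site (GRCm38.p6), written along the gene: Alb chr5:90460620-90460869 and Afp chr5:90490464-90490713 and Afm chr5:90518699-90518948 on the plus strand, and Gc chr5:89457899-89458148 on the minus strand. All 4 genes matched the RefSeq table by symbol. The GENCODE start sites, from which every other distance is counted, lie 27 bp (Alb) and 23 bp (Afp) further along the gene and 17 bp before the RefSeq one in Afm, and are the same in Gc. The elements are 300 bases of the plus strand around the middle of the longest stretch that lay in a peak of every library, chr5:90447683-90447982 upstream of Alb and chr5:90485653-90485952 upstream of Afp. Capitals mark matches on either strand to 7 motifs: GTTAAT (the core of an HNF1 site), CCAAT (bound by NF-Y), TATAAA (the box bound by TBP), TTGCNNAA (C/EBP), TGTTTNC (FOXA), AAAGTCCA (HNF4) and CAAGGNCA (NR5A2), where matches may overlap.
Alb promoter: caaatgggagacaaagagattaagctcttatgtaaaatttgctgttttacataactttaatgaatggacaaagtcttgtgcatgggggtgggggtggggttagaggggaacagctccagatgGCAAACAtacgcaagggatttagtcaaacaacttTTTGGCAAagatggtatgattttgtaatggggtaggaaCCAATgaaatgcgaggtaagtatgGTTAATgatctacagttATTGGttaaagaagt
Afp promoter: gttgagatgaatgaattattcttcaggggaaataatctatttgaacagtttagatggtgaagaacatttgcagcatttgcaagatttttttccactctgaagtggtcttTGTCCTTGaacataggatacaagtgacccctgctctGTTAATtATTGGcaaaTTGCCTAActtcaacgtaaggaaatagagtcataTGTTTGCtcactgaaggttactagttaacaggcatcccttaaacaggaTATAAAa
Afm promoter: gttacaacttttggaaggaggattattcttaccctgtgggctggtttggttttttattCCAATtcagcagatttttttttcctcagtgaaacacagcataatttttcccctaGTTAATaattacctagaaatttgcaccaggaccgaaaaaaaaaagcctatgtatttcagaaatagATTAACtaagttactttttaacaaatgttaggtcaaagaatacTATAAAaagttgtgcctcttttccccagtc
Gc promoter: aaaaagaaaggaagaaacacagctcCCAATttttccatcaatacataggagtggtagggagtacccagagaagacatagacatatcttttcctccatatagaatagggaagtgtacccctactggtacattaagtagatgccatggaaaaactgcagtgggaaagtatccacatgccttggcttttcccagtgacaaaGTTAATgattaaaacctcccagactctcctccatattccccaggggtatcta
Alb upstream element: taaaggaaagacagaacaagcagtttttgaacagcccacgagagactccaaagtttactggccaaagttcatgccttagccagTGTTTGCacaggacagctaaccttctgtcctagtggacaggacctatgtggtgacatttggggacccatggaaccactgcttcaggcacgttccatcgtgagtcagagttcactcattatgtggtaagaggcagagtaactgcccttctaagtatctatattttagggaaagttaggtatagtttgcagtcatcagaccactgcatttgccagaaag
Afp upstream element: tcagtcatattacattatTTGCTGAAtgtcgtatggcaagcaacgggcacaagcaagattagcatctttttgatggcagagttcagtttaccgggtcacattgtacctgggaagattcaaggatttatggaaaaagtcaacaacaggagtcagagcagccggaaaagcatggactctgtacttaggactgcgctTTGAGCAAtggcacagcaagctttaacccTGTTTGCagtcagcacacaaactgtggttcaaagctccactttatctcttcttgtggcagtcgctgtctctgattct

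The HNF1 core was found in all 4 promoters. It began at -32 in Alb, -105 in Afp, -138 in Afm and -52 in Gc relative to the RefSeq start site, and Afm held a copy on the other strand at -73. Among the 32851 promoters of the same length in the table, 6.43% held it. CCAAT was also present in all 4, against 33.8% of all promoters, and the C/EBP and FOXA letters were present in Alb and Afp but not in the windows of Afm and Gc, against 9.56% and 17.8%. TATAAA lay at -7 in Afp, which is -30 from its GENCODE start site, and at -30 in Afm (12.4% of promoters). The NR5A2 letters occurred in Afp (5.53% of promoters), and the HNF4 letters occurred in none of the 4 (1.01%). The Alb element held 1 FOXA match, which 25.7% of 62833 windows of 300 bases at the centre of shared regions also held. The Afp element held 2 C/EBP matches and 1 FOXA match, with C/EBP letters in 14.9% of those windows. These matches describe letters in a window and say nothing of bound factors.

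Values are cut sites as CPM, scaled to the counts in autosomal regions with a peak in every library, summed over barcodes with at least 1000 counts, called nuclei here. There were 3977, 3892, 4256 and 3224 nuclei at 0, 48, 72 and 96 h, and median counts per nucleus were 26005, 11629, 4841 and 3681.5. Peaks had been called in each library on its own and were shorter in the late libraries (153.6, 179.04, 141.2 and 60.9 Mb in all), so the covered length or the value per kb is given with the values of the 4 genes. The labelled cell type was checked with 20 hepatocyte marker genes: 94.0%, 95.5%, 93.2% and 97.3% of nuclei had more counts there than at non-parenchymal markers (29 of 46 such genes had a region to count), called the hepatocyte side. Libraries shared barcode sequences. A total of 1066, 833, 957 and 904 barcodes occurred in at least 1 other library and 638 in all 4, and in the pair of 0 and 72 h the 882 shared barcodes had median counts of 71159 at 0 h and 483 at 72 h. Of nuclei, 22.1%, 6.09%, 2.94% and 3.82% carried such a barcode, and some of the values without them are given below.

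The interval was read first, to see which parts of the cluster were open (map of the peaks by distance from Alb). It held 15, 19, 20 and 17 peaks at 0, 48, 72 and 96 h, over 63115, 61089, 47937 and 26528 bp. These peaks fell in 15, 14, 12 and 7 of the 16 regions. A peak was present in every library in 7 of the 16 (43.8%), against 31.8% of all autosomal regions, and the other 9 were in 3 libraries (5), 2 libraries (1) or 1 library (3). The regions not shared were small, with ranges of 0.535 to 6.16 CPM (0 h), 0.186 to 5.38 CPM (48 h) and 0.783 to 4.28 CPM (72 h), and none of them had a peak at 96 h. The interval as a whole held 867 CPM at 0 h, 1189 at 48 h, 908 at 72 h and 855 at 96 h. The region over Alb held 69.6%, 79.5%, 79.5% and 85.4% of those counts. The log2 ratios of the whole interval to 0 h were 0.46 (0.44 to 0.48), 0.0667 (0.0356 to 0.0977) and -0.02 (-0.0583 to 0.0172) in time order. Scaled to regions of near-equal peak length the 72 and 96 h values became -0.24 and -0.67, and without nuclei of shared barcodes the 3 values were 0.40, 0.01 and -0.07.

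**Figure D1:**
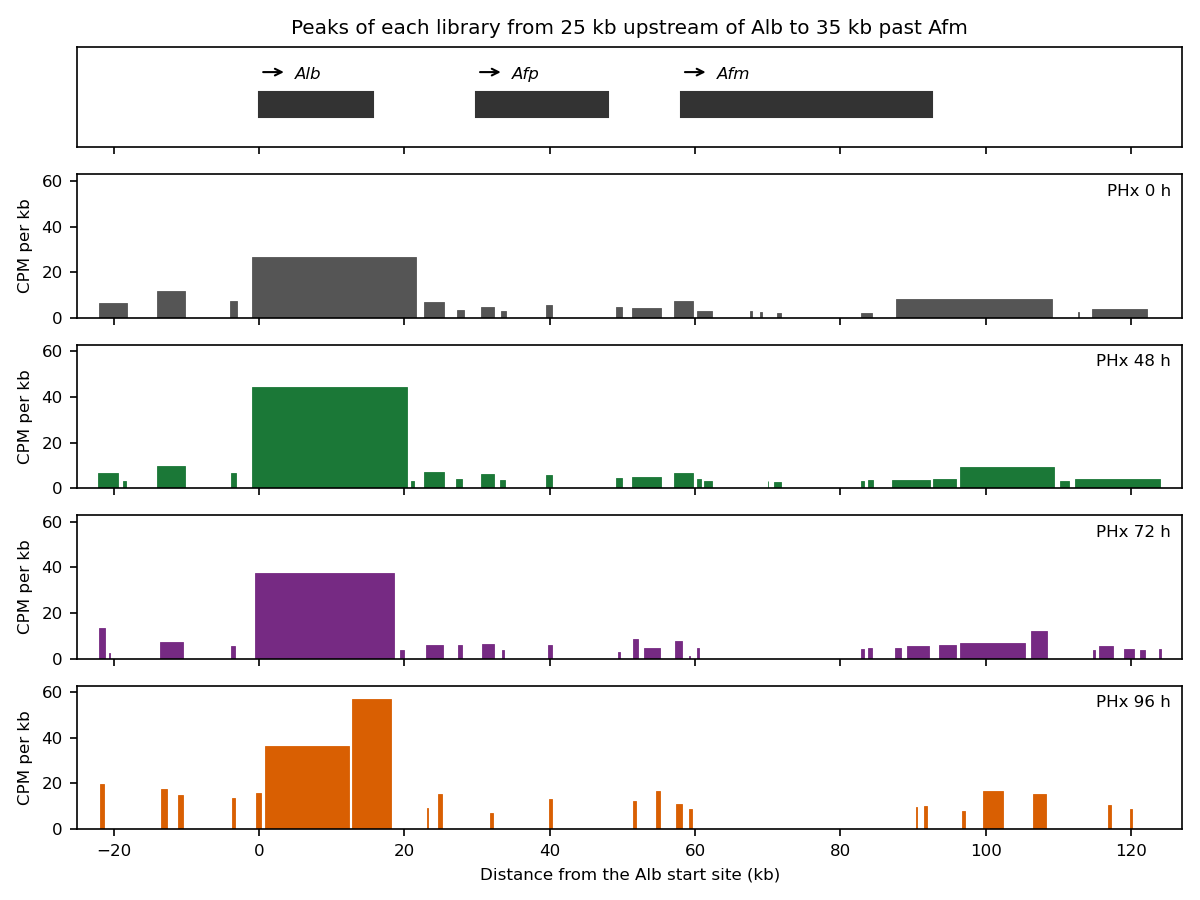
Peaks of each library by distance from the Alb start site in kb (horizontal), with height as CPM per kb of the peak (vertical) and gene bodies with arrows in the direction of transcription on top. The peak over Alb is the highest at 0 h, at 26.8 CPM per kb, and at 48 and 72 h. At 96 h 2 of the 3 peaks of Alb are the highest, while that at its start, at 15.9, is lower than other peaks of the locus such as 19.95 upstream, and the start of Afp lies in no peak.

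Alb (ENSMUSG00000029368.10, chr5:90460897-90476602, plus strand) was the most open member per length in every library. A single shared region covered the start site, all exons and introns and sequence past the 3' end, from -988 to 21555 bp relative to the start site. The undamaged library had 603 CPM there (597 to 609). Those after PHx had 945 (48 h, 933 to 956), 722 (72 h, 706 to 738) and 729.6 (96 h, 710.2 to 749.3). Summed over all nuclei, the 3 libraries after PHx stood above that of 0 h, with 48 h highest and 72 and 96 h overlapping in their intervals. Over 22520, 21818, 19826 and 17462 bp covered, this came to 26.8, 43.3, 36.4 and 41.8 CPM per kb. Only 25, 1, 7 and 154 of the 11507 genes with a mean of at least 20 CPM had a higher value per kb.

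At 48 h the log2 ratio of Alb to 0 h was 0.65 (0.62 to 0.67) by CPM and 0.69 per kb, while the median of all genes was -0.07 and -0.13. Of all genes, 94.96% had a lower ratio by CPM and 99.5% per kb. At 72 and 96 h the log2 ratios were 0.26 and 0.27 by CPM, and 0.44 and 0.64 per kb. These 2 late values did not hold under every scaling: relative to regions of near-equal length they were -0.05 and -0.38, where the median of all genes moved to -0.33 and -0.60. A scaling moves all genes alike, so the distance of Alb from that median, 0.29 and 0.22, is the same under each. Per kb, Alb at 96 h lay below the median of all genes of 1.004. Without nuclei of shared barcodes the 0 h level was 646 CPM and the log2 ratios were 0.55, 0.16 and 0.19. With binarised counts, in which a nucleus adds at most 1 per peak, they were 0.89, 1.68 and 2.25. The Alb region held 1, 2, 2 and 3 peaks in time order, so a nucleus could add more in the later libraries. At 0 h the Alb level also differed with depth on the hepatocyte side, from 747 CPM in the shallowest of 3 equal parts of the nuclei to 560 in the deepest, against 933 and 956 CPM at 48 h, so that 48 h stood above 0 h in each part. At 72 and 96 h this did not hold at like depth: the shallowest part at 0 h (median of 8523 counts, 723 to 772 CPM) overlapped the deepest parts at 72 h (9588.5 counts, 761 CPM, 739 to 783) and 96 h (7658 counts, 732 CPM, 707 to 758). The shallowest parts of these libraries stood at 637 and 702 CPM.

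Within the gene, accessibility at 96 h was split into 3 peaks. The peak over the start site, chr5:90460448-90461196, held 11.9 CPM (9.58 to 14.7), which is 15.9 CPM per kb. The peak over most of the gene body, chr5:90461752-90473214, held 418 CPM or 36.4 per kb. The last peak, chr5:90473757-90479006, from within the gene to past its 3' end, held 299.98 CPM (288 to 313) or 57.1 per kb. The end of the gene was therefore denser in cuts than its promoter in this library, and in the other 3 libraries 1 long peak covered both, so the same comparison could not be made there.

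**Figure D2:**
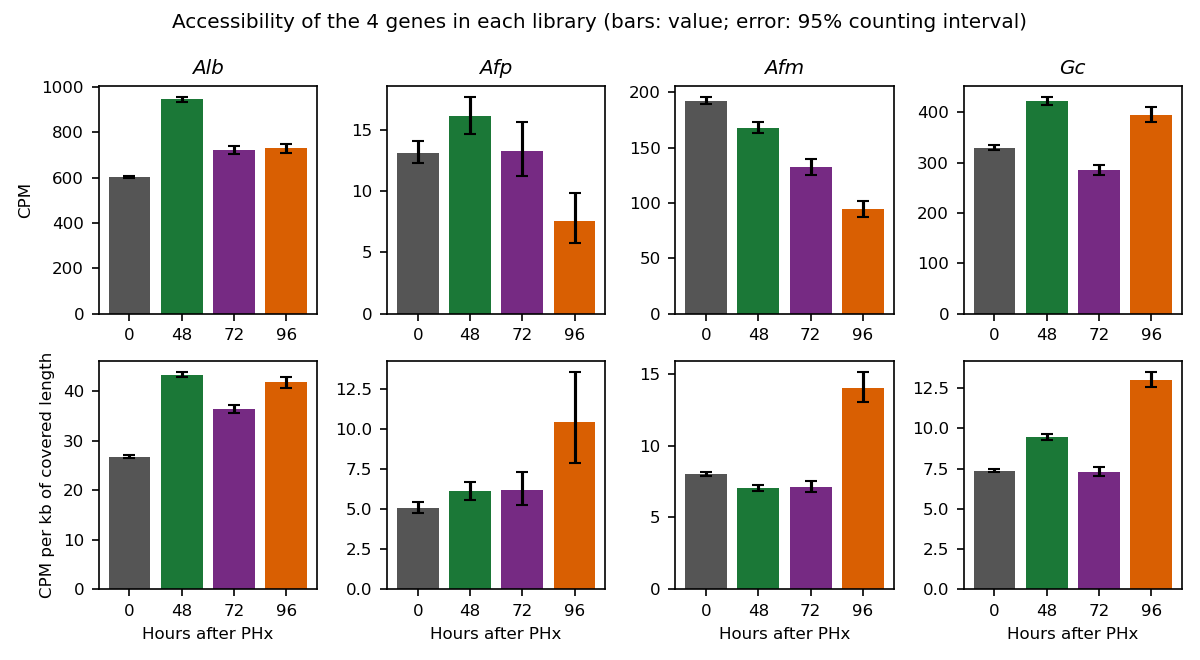
Accessibility of the 4 genes (columns) in each library by hours after PHx: CPM in the upper row and CPM per kb of covered length in the lower row, as bars from 0 with 95% counting intervals. Alb is highest at 48 h at 945 CPM, Afm goes from 192.5 to 94.6 CPM, and the lower row shows the 96 h library higher per kb for Afp, Afm and Gc.

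The regions upstream of Alb did not follow the gene. The element from -14014 to -10240 bp, in the stretch where liver enhancers of Alb are known, held 44.6 CPM at 0 h, 37.3 at 48 h, 23.8 at 72 h and 22.9 at 96 h. Its log2 ratios were -0.26 (-0.36 to -0.15), -0.90 (-1.09 to -0.72) and -0.96 (-1.19 to -0.73), each below 0 also with either other scaling, on the hepatocyte side and without shared barcodes. Covered length was 3744, 3775, 3225 and 1411 bp, so at 48 h, with equal length, the element was lower while the gene was higher. Per kb the ratio was -0.27 at 48 h, -0.69 at 72 h and, with its sign turned, 0.45 at 96 h. Among 43836 shared regions with a mean of at least 5 CPM, 20.7%, 0.699% and 9.50% had a lower ratio per kb, where the Alb gene region stood at 98.2%, 64.2% and 19.4%.

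The other 2 shared regions upstream of Alb were smaller. From -22091 to -18223 bp there were 25.1, 19.2, 11.2 and 12.7 CPM, with log2 ratios of -0.39, -1.16 and -0.98 by CPM but -0.11, 0.89 and 1.61 per kb. From -4055 to -3022 bp there were 7.70, 4.97, 3.59 and 5.84 CPM, with log2 ratios of -0.63 (-0.92 to -0.35), -1.10 (-1.61 to -0.63) and -0.40 (-0.89 to 0.05) by CPM and -0.20, -0.37 and 0.87 per kb, over 1034, 767, 625 and 430 bp. All 3 upstream regions were thus below 0 h by CPM at each later time while Alb was above, the smallest within counting error at 96 h, and per kb all 3 were below 0 h at 48 h and above it at 96 h.

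**Figure D3:**
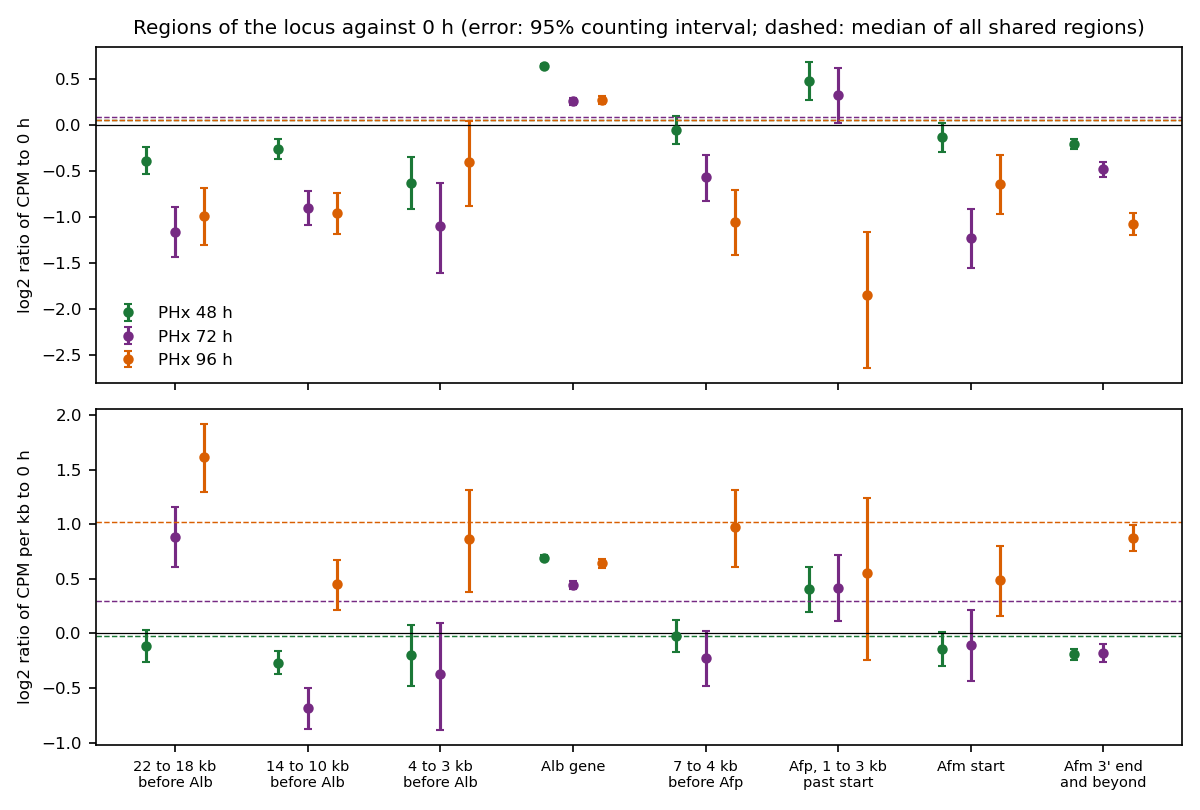
log2 ratio to 0 h of CPM (upper) and of CPM per kb (lower) for 8 shared regions in their order along chromosome 5 (horizontal), for 48, 72 and 96 h, with 95% counting intervals and the median of all shared regions dashed. At 48 h the Alb gene stands at 0.65 and the 3 regions before it below 0 in both rows; at 96 h the dashed line of the lower row lies at 1.02.

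Afp (chr5:90490737-90508907, plus strand), silenced in adult liver, was the least open member. Its 2 shared regions held 13.2 CPM (12.3 to 14.1), 16.1 (14.6 to 17.7), 13.3 (11.2 to 15.7) and 7.60 (5.74 to 9.87) at 0, 48, 72 and 96 h, under the minimum of 20 CPM as a mean. Per kb it had 5.07, 6.09, 6.201 and 10.4 CPM, below Alb in every library. The log2 ratios were 0.29 (0.12 to 0.46), 0.02 and -0.79 (-1.21 to -0.40) by CPM. The value at 72 h turned negative with all counts as the scale (-0.04), with near-equal lengths (-0.29) with binarised counts (-0.40) and without shared barcodes (-0.03), and the 96 h value was 1.04 per kb, where covered length was 730 bp against 2594 bp at 0 h, and 0.23 with 10000 bp upstream, a window that reaches the Alb region.

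The start site of Afp lay in no peak of any library. The nearest peak began 737, 703, 813 and 2014 bp past it, and the promoter sequence printed above had 0 of its 250 bases in a peak, while those of Alb, Afm and Gc had all 250 in every library. So 3 of the 4 members had a start site in a peak in every library. That held for 55.3% of all protein-coding genes and for 9648 of the 11507 with a mean of at least 20 CPM. Start sites of 33.9% of the 20753 genes were in no peak of any library, and of 8.48% of those with at least 20 CPM. The region nearest the start, 703 to 2563 bp into the gene, held 8.33, 11.6, 10.5 and 2.31 CPM, with log2 ratios of 0.48 (0.28 to 0.69), 0.33 (0.02 to 0.62) and -1.85 (-2.64 to -1.16) by CPM. Per kb they were 0.41, 0.42 and 0.55, the last over 334 bp against 1766 bp at 0 h. The other shared region of Afp, in an intron of Afp and of Gm43449 9639 to 10466 bp past the start, held 4.82, 4.47, 2.86 and 5.29 CPM, with log2 ratios of -0.11 (-0.43 to 0.20), -0.76 (-1.34 to -0.22) and 0.13 (-0.39 to 0.62) by CPM and -0.03, 0.000664 and 1.198 per kb. The higher value of Afp at 48 h and the lower one at 96 h thus came from the region near the start alone. The element between Alb and Afp, at -7188 to -4318 bp from the Afp start, held 20.4, 19.7, 13.7 and 9.84 CPM, with log2 ratios of -0.05 (-0.20 to 0.10), -0.57 and -1.05 by CPM and -0.02, -0.23 and 0.97 per kb. It was thus level with 0 h within counting error at 48 h, when Alb beside it was higher. Without shared barcodes the ratios of this element by CPM were 0.16, -0.37 and -0.81.

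Afm (chr5:90518932-90553543, plus strand) was lower in each later library. In time order it held 192.5 CPM (189.05 to 195.9), 168 (163 to 173), 132 (126 to 139) and 94.6 (87.7 to 101.9), with intervals that did not overlap. The log2 ratios were -0.20, -0.54 and -1.02 (-1.14 to -0.91), and all 3 stayed negative with either other scaling. With binarised counts all 3 turned positive, at 0.55, 0.47 and 0.077. Its region at the 3' end held 1, 3, 5 and 6 peaks in time order, each adding up to 1 per nucleus. Covered length went from 24010 and 23841 to 18548 and 6730 bp, and per kb the level was 8.02, 7.05, 7.14 and 14.1, so the sign at 96 h turned to 0.81 per kb, against a median of all genes of 1.004.

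Most of the Afm value came from 1 region at its 3' end. That region, chr5:90547956-90570289, covers the last exons and runs past the gene over the start of 5830473C10Rik, and it held 174, 151, 124 and 82.6 of the CPM above. At 0 h it cannot be split between the 2 genes, since 1 peak of 21469 bp covered both. In the later libraries no peak crossed the end of Afm, and those inside Afm held 19.9 CPM at 48 h, 20.9 at 72 h and 6.45 at 96 h, so 86.8%, 83.2% and 92.2% of the region lay past the end of Afm. The region over the Afm start site, -916 to 1643 bp, held 18.7, 17.1, 7.97 and 12.0 CPM. Its log2 ratios were -0.13 (-0.29 to 0.03), -1.23 (-1.56 to -0.91) and -0.64 (-0.96 to -0.32) by CPM and -0.14, -0.10 and 0.49 per kb, with the covered length going from 2541 to 1166 bp at 72 h. The start of Afm was thus lowest by CPM at 72 h, and the 3' region at 96 h. Between Afp and Afm, a region at -6695 to -2752 bp from the Afm start held 16.5 CPM at 0 h and log2 ratios of 0.19, -0.02 and -0.32 by CPM but 0.18, 0.42 and 1.80 per kb, with the covered length going from 3914 to 900 bp at 96 h. Without shared barcodes its ratios by CPM were 0.30, 0.05 and -0.29, so the sign at 72 h turned.

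Gc (chr5:89417522-89457898, minus strand) lies outside the interval. Its 2 shared regions held 329.8 CPM (325.4 to 334.4), 423 (415 to 431), 286 (276 to 296) and 395 (381 to 409.7) over 44748, 44663, 39080 and 30346 bp. The 48 and 96 h libraries stood above 0 h and that of 72 h below it, with no overlap of intervals against 0 h. The log2 ratios were 0.36, -0.21 and 0.26 by CPM and 0.36, -0.01 and 0.82 per kb, and with near-equal lengths that of 96 h was -0.39. With binarised counts they were 0.46, 0.58 and 1.28, so the sign at 72 h turned (2, 1, 3 and 8 start-region peaks in time order). The 48 h value lay above 86.7% of all genes by CPM and 96.8% per kb. Its region over the start site and the one over its 3' end differed at 96 h, at 0.04 (-0.03 to 0.12) and 0.67 (0.58 to 0.76), and the upstream region from -10925 to -8325 bp was below 0 h by CPM in each later library, at 19.5, 16.3, 11.7 and 12.6 CPM over 2335, 2601, 1891 and 1469 bp, with per kb ratios of -0.42, -0.44 and 0.0394. Alb and Gc therefore shared a higher gene and a lower upstream region at 48 h.

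Read against a fold of 2, the members' differences were mostly small. No member was at least 2-fold higher at 48, 72 or 96 h, where 1.28%, 4.15% and 2.93% of the 11507 genes were. No member was at least 2-fold lower at 48 or 72 h, where 0.4% and 2.17% of genes were. At 96 h 1 of the 4, Afm, was at least 2-fold lower, against 3.1% of genes, and 3 of the 4 had passed the minimum of 20 CPM. The Afm call lay at the limit: its log2 ratio was -0.92 with all counts as the scale and -0.998 without shared barcodes, and -0.64 over the start region alone, and most of its counts at 96 h lay past the end of the gene. Across all genes the ratio by CPM went with the ratio of covered length, with a correlation over genes of 0.773, 0.802 and 0.742, and genes are not independent.

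**Figure D4:**
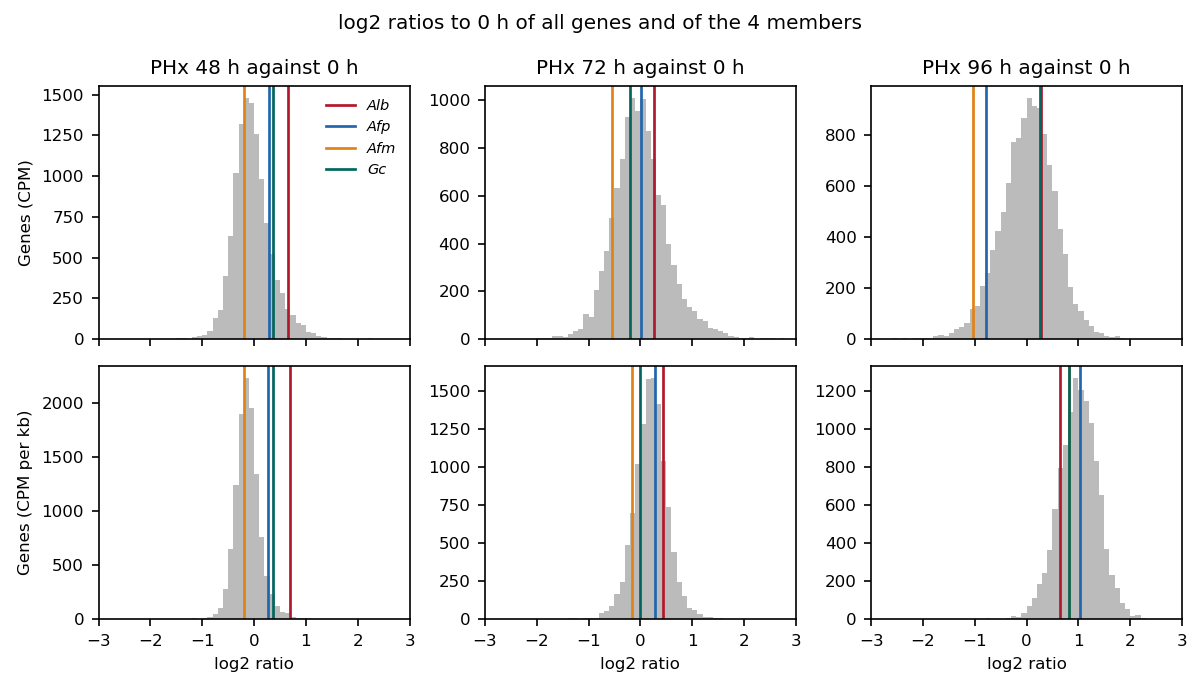
Distribution over 11507 genes (vertical: number of genes in bins of 0.1) of the log2 ratio to 0 h (horizontal) at 48, 72 and 96 h, by CPM (upper) and per kb (lower), with lines for the members. At 48 h Alb lies in the right tail of both rows, at 0.65 and 0.69; at 96 h the whole lower distribution is centred on 1.004.

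Nuclei were then compared at 1 depth, since depth differed between libraries. Each nucleus with at least 2000 counts in shared regions was thinned to 2000, which left out 295, 377, 802 and 757 nuclei, and was called open at a gene with 1 count or more. In time order Alb was open in 61.2% of nuclei (59.6 to 62.8, exact binomial), 73.4% (71.9 to 74.8), 60.02% (58.4 to 61.7) and 58.3% (56.3 to 60.2). The 48 h library stood apart from the other 3, and the intervals of 0, 72 and 96 h overlapped each other. Before thinning the shares were 88.8%, 89.1%, 73.4% and 69.8%, at median depths of 26171.5, 11452, 5039 and 4497 counts. Gc was open in 44.2%, 49.6%, 32.9% and 42.9%, Afm in 28.1%, 23.8%, 17.8% and 14.2%, and Afp in 2.44%, 2.67%, 1.97% and 0.851%. Thinning matched depth but not covered length. From 0 to 96 h that length went from 44748 to 30346 bp in Gc, 24010 to 6730 bp in Afm and 2594 to 730 bp in Afp. A lower share of open nuclei and shorter peaks therefore cannot be told apart. The order Alb, Gc, Afm, Afp was the same in each library, but Gc had more covered length than Afm. Per kb Afm stood above Gc at 0 h (8.02 against 7.37 CPM) and at 96 h (14.05 against 13.02). Gc stood above Afm at 48 h (9.47 against 7.05) and at 72 h (7.31 against 7.14). The Afm share also counts its 3' region, which lay mostly past the gene in the later libraries. Averaged over all draws of the thinning, the region over the Afm start was open in 3.25%, 2.69%, 1.18% and 1.83% of nuclei.

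On the non-parenchymal side, which should lack these genes, Alb was open in 3.13% of 128 nuclei at 0 h, 5.45% of 55 at 48 h and 28.6% (15.7 to 44.6) of 42 at 72 h. At 96 h it was 0 of 4 nuclei, where the limit of 3 counts allows a share of up to 75%. Median depth there was 5040, 3749, 2570 and 2412 counts in shared regions, against 27421, 11666, 5101.5 and 4506 on the hepatocyte side, where Alb was open in 63.8%, 74.2%, 61.3% and 58.0%. Gc was open there in 3.91%, 3.64% and 26.2%, so at 72 h this side carried both genes at a share well above that at 0 h, and 159 nuclei of that library lay near the line between the sides. Afp was open in 0%, 1.82% and 2.38% of the non-parenchymal side (for 0 of 128 at 0 h the limit of 3 counts is 2.34%) and in 2.18%, 2.79%, 2.07% and 0.854% of the hepatocyte side. The intervals of Afp on the non-parenchymal side reached 9.72% and 12.6% at 48 and 72 h, so with so few nuclei a difference of Afp between the sides was not detectable.

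**Figure D5:**
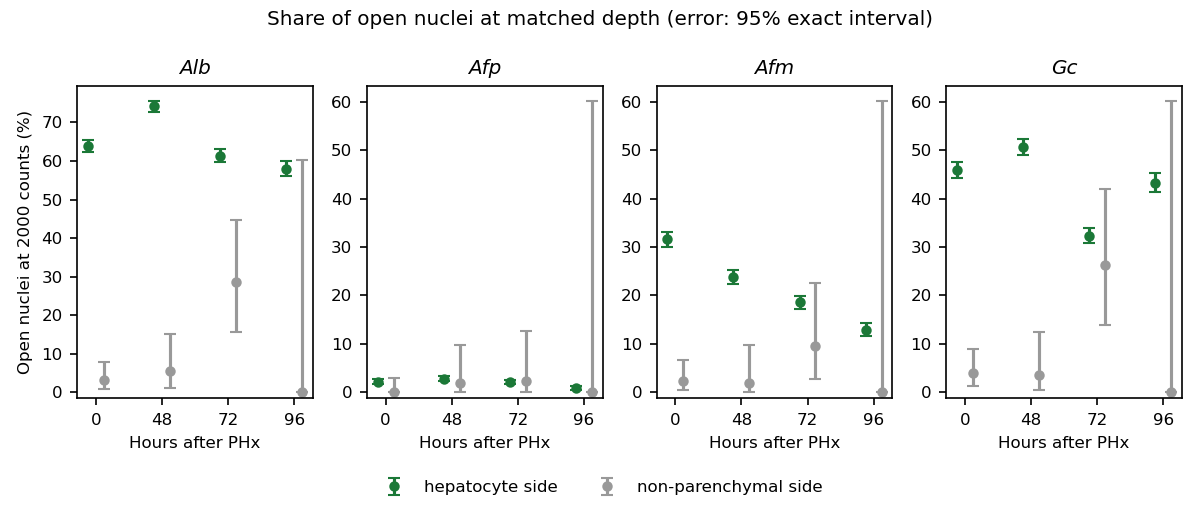
Share of nuclei (vertical, percent) with at least 1 count at each gene after thinning to 2000 counts, by hours after PHx (horizontal), for the hepatocyte side and the non-parenchymal side, with 95% exact binomial intervals. Alb is highest at 48 h at 74.2% on the hepatocyte side, Afm goes down in the order of the time points, as does its covered length, and the non-parenchymal points at 96 h rest on 4 nuclei.

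Other genes of the pathway were taken from lists. Of 28 plasma protein genes of the hepatocyte, such as Ttr (transthyretin) and Apoa1, 2 were at least 2-fold higher (7.14%, against 1.28% of all genes) and 0 lower (0.4% of all genes) at 48 h, with a median log2 ratio of 0.43 against -0.07 over all genes. Alb and Gc, at 0.65 and 0.36, lay on either side of that median. At 72 h there were 1 higher (3.57%, against 4.15% of all genes) and 5 lower (17.9% against 2.17%) with a median of -0.22, where Gc was at -0.21 and Alb at 0.26. At 96 h there were 9 higher (32.1%, against 2.93% of all genes) and 1 lower (3.57% against 3.1%) with a median of 0.30. With near-equal lengths the counts at 96 h turned to 1 higher (Hpx) and 9 lower, where 0.313% and 21.9% of all genes were, and the median became -0.35, where all genes stood at -0.60. By density at 96 h, 12 were higher (42.9%, against 50.5% of all genes) and 0 lower, with a median per kb of 0.95 against 1.004. Per kb, 0, 0, 0 and 2 of the 28 were more open than Alb at 0, 48, 72 and 96 h. The 2 higher at 48 h were Hpx (hemopexin, which binds heme), at 206, 683, 600 and 902 CPM, and Cp (ceruloplasmin, which carries copper), at 271, 559, 423 and 695. Both were again higher at 96 h, Hpx at 72 h too, and at 48 h Hpx alone was past the fold with either other scaling or per kb. The others higher at 96 h by CPM were Hp (haptoglobin, which binds hemoglobin), at 104, 200.3, 119.5 and 289.7 CPM, C3 (complement), at 392, 780.1, 486 and 855, the fibrinogen genes Fga, Fgb and Fgg, which share 1 region and so the same counts, and Itih3 and Itih4, which share another. The lowest ratios at 48 h were those of Rbp4 (retinol binding protein), with log2 ratios of -0.73, -1.01 and -0.94, and Fetub, with -0.54, -1.32 and -0.81 (0.15 per kb at 96 h). Both were among the 5 lower at 72 h, with Apoa1 (-0.51, -1.08 and -0.90), Kng1 (0.39, -1.17 and -0.02) and Hrg (-0.41, -1.84 and -1.06). Per kb Fetub alone was 2-fold lower at 72 h, at -1.30, while Hrg was at -0.66, and the 96 h ratios of Kng1 and Hrg turned to 0.64 and 0.54.

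Of 26 factors that act on the Alb and Afp promoters and enhancers, 1 was at least 2-fold higher and 0 lower at 48 h, and 1 was higher and 1 lower at 72 h and again at 96 h. Each 1 of 26 is 3.85%, against 1.28% of all genes higher at 48 h, 4.15% higher and 2.17% lower at 72 h, and 2.93% and 3.1% at 96 h. With near-equal lengths there were 0 higher and 7 lower (26.9%) at 96 h, where 0.313% and 21.9% of all genes were. Per kb 8 were higher at 96 h (30.8%, against 50.5% of all genes) and 0 lower. The higher gene at 48 h was Onecut1 (122 to 249 CPM), whose covered length went from 14893 to 35878 bp, so that per kb its log2 ratio was -0.24, and it was not past the fold with either other scaling. Dbp, which binds the Alb promoter and has a daily rhythm, was at 351, 200.1, 114 and 162 CPM, with log2 ratios of -0.81, -1.63 and -1.12. Cebpa, the C/EBP factor of mature hepatocytes, was at 291, 197, 157 and 197 CPM, below 0 h in each library and per kb too. Nr2f1 was at 14.7, 28.01, 39.4 and 41.1 CPM. The list medians of -0.06, -0.16 and -0.09 lay near those of all genes (-0.07, -0.03 and 0.06).

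Of 9 receptors and enzymes that handle the carried ligands, 8 passed the minimum, and 1 was at least 2-fold higher at 48 and at 72 h: Amn (22.8, 52.0 and 67.4 CPM at 0, 48 and 72 h), the partner of the vitamin D binding protein receptor cubilin, over 4930, 10086 and 9968 bp. That is 12.5% against 1.28% and 4.15% of all genes, and per kb Amn was not past the fold, at 0.16 and 0.55. The list medians were 0.30, 0.17 and 0.12. Fcgrt, the receptor that recycles albumin, was at 37.4, 28.3, 27.3 and 32.3 CPM, with the sign at 96 h turned to 0.37 per kb. At 48 h the log2 ratio was 0.34 for Cubn (cubilin) and -0.33 for Cyp2r1, a vitamin D 25-hydroxylase. Of 16 neighbouring genes, 9 passed. By CPM none was 2-fold higher at 48, 72 or 96 h, where 1.28%, 4.15% and 2.93% of all genes were. At 96 h 1 was lower (11.1%, against 3.1% of all genes). That was 5830473C10Rik, which shares the Afm 3' region, at 231, 238, 182 and 98.7 CPM. Its log2 ratio of -1.23 at 96 h turned to 1.21 per kb. Cxcl1 was higher at 96 h with all counts as the scale (11.1%, against 4.18% of all genes). Per kb 6 of the 9 were higher at 96 h (66.7%, against 50.5% of all genes). The furthest from 0 at 48 h among those that passed were Adamts3 (0.46) and Cxcl1 (0.42) above, and Rassf6 (-0.44) and Gm9958 (-0.23) below. Ankrd17, beside Alb on the side of Gc, was at 93.0, 92.1, 73.0 and 82.6 CPM, so the higher level of Alb at 48 h was not seen there, and per kb its 96 h ratio was 0.94.

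Genes with the most similar course were sought by the distance of their 3 log2 ratios from those of each member among 11504 genes. The nearest were Cabyr (0.10), Adam15 (0.14) and AA986860 (0.15) to Alb, Dhx9, Armc7 and Mybbp1a to Afp, Tmbim1 (0.04), Slc11a2 and Kyat1 to Afm, and Tmem120a (0.09), Tmem212 and Por to Gc. Cabyr stood at 402, 657, 470.3 and 513 CPM. Each rests on 3 ratios against the same 0 h library and describes these libraries only.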

How the data were processed

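scATAC-Seq was measured in 4 libraries of mouse hepatocytes, 1 per time point. The deposited matrices hold counts of transposase cut sites per peak and barcode, which the authors made with Cell Ranger ATAC 1.1.0 per the file headers, on mm10 per the submitters' processing notes. Duplicate removal and alignment were part of that tool. Peak calling by the authors ran per library, and the deposited peaks carry no score. Since most fragments count at both ends, exact 95% Poisson intervals were computed on counts divided by 2.

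Barcodes with at least 1000 counts were used (3977, 3892, 4256 and 3224 at 0, 48, 72 and 96 h, from totals of 136949314, 62553202, 25540258 and 15809769 counts). Peaks that touched or overlapped by at least 1 bp were merged into regions, and 62837 autosomal regions with a peak in every library set the scale of CPM. A gene was the sum over such regions that overlap it or the 2000 bp upstream. The fold of 2 was read without a test among 11507 genes with a mean of at least 20 CPM, and the calling of folds was tested on simulated data. A nucleus with more counts at hepatocyte than at non-parenchymal markers was on the hepatocyte side, and one with more at non-parenchymal markers and at least 4 counts there on the other. No doublet caller was run, and leaving out the 5% of nuclei with the most counts was tried instead. ArchR and Cicero, which the study used, were not run.

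All members were named, with regions of the interval that had a peak in every library or at least 5% of its counts in 1 library, from each list the 2 largest rises and 2 largest falls at 48 h and every gene past the fold, and the 3 genes nearest to each member. Regions outside the interval and single peaks were chosen after their values were seen. The members and lists were chosen with earlier results of these data known. The alternatives were other scalings, barcode minimums, marker sides, binarised counts, counts per kb, gene windows and thinning depths, and, added after the data were seen, leaving out barcodes shared between libraries and regions that run past Afm. Python 3.11.15, NumPy 2.4.6, SciPy 1.17.1 and pandas 2.3.3 were used.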

Additional observations from a re-analysis of the deposited data

Results flagged for a closer look

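Barcodes with fewer than 1000 counts entered no comparison, and there were 668, 1081, 1444 and 1675 of them at 0, 48, 72 and 96 h. Their counts at Alb were above the limit that a count of 0 allows in every library. The Alb level in them was 636 CPM (521 to 769.6) at 0 h, 670.5 at 48 h, 510.5 at 72 h and 553 at 96 h. Many of these barcodes also occurred in another library, 28.3%, 55.1%, 57.6% and 46.6% of them. Of the 1066 barcodes of the 0 h library found elsewhere, 865 had their highest count at 0 h. Without any barcode found in another library, Alb stood at 545 (424 to 689), 746 (599 to 918), 416 (324 to 526) and 429 (353 to 517) CPM, with the intervals of 0 and 48 h overlapping. The part of free DNA or of barcodes carried over between libraries in these values was not tested.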

How the results depend on the processing

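No paired analysis was possible because each time point had 1 library. The counts of members past the fold cover all 4, also Afp, which lies under the minimum of 20 CPM. The count at least 2-fold lower at 96 h, which was 1 (Afm), became 0 with all counts as the scale, with at least 3000 counts per barcode, per kb, with 10000 bp upstream, without regions mostly outside the gene and without shared barcodes, and 2 (Afm and Afp) with near-equal peak lengths or a fold of 1.5. With binarised counts it was 1, Afp in place of Afm. Of all genes, 21.9% were at least 2-fold lower at 96 h with near-equal lengths. With all counts as the scale 2.02% were, and per kb 0%, against 3.1% in the main setting. For Afm itself the log2 ratio at 96 h turned to 0.81 per kb and 0.077 with binarised counts, which also turned its 48 and 72 h values and those of Afp and Gc at 72 h (0.55, 0.47, -0.40 and 0.58). Other counts moved with binarised counts (1 higher at 72 h, Alb, and 2 at 96 h, Alb and Gc), per kb (1 higher at 96 h, Afp), a fold of 1.5 (1 higher at 48 h, Alb) and without regions mostly outside the gene (1 lower at 72 h, Afm). Per kb, 50.5% of all genes were at least 2-fold higher at 96 h. For binarised counts, the fold of 1.5 and the count without outside regions, no share of all genes is given here, so these counts have no background. The log2 ratio of the interval at 48, 72 and 96 h was 0.38, 0.00439 and 0.0858 with all counts as the scale, 0.36, -0.24 and -0.67 with near-equal lengths, 0.58, 0.18 and 0.16 without the region that runs past Afm, and 0.40, 0.00873 and -0.0708 without shared barcodes. It was 0.43 at 48 h and 0.0237 at 72 h without the deepest nuclei, 0.10 at 72 h with at least 3000 counts and -0.0596 at 96 h with peaks of at least the median count. The share of nuclei open at Alb was 41.2%, 53.0%, 40.5% and 39.8% at 0, 48, 72 and 96 h after thinning to 1000 counts and 83.2%, 91.8%, 83.8% and 81.3% after thinning to 5000, with 48 h highest at each depth. Of the 7 shared regions of the interval, 1 overlapped by at least 50% in all libraries. The causes were not tested, and the shorter peaks called in the shallow libraries cannot be told apart from a change in time.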
